A study of Homo sapiens with 8 samples.

Results

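The 8 genes described here, FN1, VCAN, SPOCK1, FAM20C, F2RL2, CYBA, CHPF2 and TMEM132A, were chosen by their measured level, because both libraries of palbociclib-treated cells held more of their transcripts than any other library. They were 8 of 18955 genes in the count table, and all 8 were among the 9288 genes that passed a minimum of 5 CPM (UMIs of a gene per 1000000 UMIs of its library) in at least 2 libraries. UMIs are molecular tags that count each captured transcript once. Because the choice used the level in every library, the palbociclib difference of these genes is given as a description, and no test of it is read here.

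The cells were SUM159, an established triple-negative breast cancer line, carrying a lentiviral library of DNA barcodes in every group. Groups were cells before treatment (602 cells), cells passaged with the vehicle DMSO (459), and cells selected for up to 18 passages with 0.6 nM paclitaxel (752), 100 nM JQ1 (697 cells in JQ1-A and 868 in JQ1-B), 100 nM JQ1 with 0.6 nM paclitaxel (643), 160 nM palbociclib (693) or 100 nM JQ1 with 160 nM palbociclib (1024). JQ1 displaces BET bromodomain proteins from chromatin, palbociclib inhibits CDK4 and CDK6, which drive cells out of G1, and paclitaxel stabilises microtubules. Cells of the parallel cultures of a treatment had been pooled before capture (2 surviving cultures for JQ1+palbociclib). In the assignment used here, both palbociclib libraries and JQ1-B formed the same experiment, and the single DMSO library belonged to the paclitaxel experiment. The paper shows DMSO cultures beside JQ1 and palbociclib, so this assignment of the DMSO library is uncertain. Under it, the palbociclib difference and the experiment could be separated only through the JQ1 libraries, and each treatment within an experiment was a single library.

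Library totals ran from 10621159 UMIs in DMSO to 24240835 in JQ1+palbociclib, with medians of 20664 to 22503 UMIs per cell. The sequence that labels each cell in the counts occurred in 2 libraries for 26 of the 5738 cells. This label is not the lentiviral barcode, which was not read here. VIM, the mesenchymal filament gene of this line, stood at 3279 to 4502 CPM, while ESR1 and PGR reached at most 0.139 CPM and CDH1 had no row. ERBB2, also looked up as a gene with a low level, was above 5 CPM in every library. It was lowest before treatment, at 5.32 CPM, and highest in JQ1+palbociclib. The keratin genes KRT8 and KRT18 stood at 275 to 669 CPM. The summed level of 4 fibroblast markers was highest in palbociclib (40.4 CPM) and lowest in JQ1+palbociclib (3.55 CPM); DCN made up 34.4 CPM of the former, and LUM and COL1A2 were at 0 to 0.209 CPM in every library. The median share of mitochondrial UMIs per cell was 5.58% in palbociclib and 7.18% in JQ1+palbociclib, against 3.72% to 5.35% in the other libraries, and its part in the results was not tested.

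Most of the 8 genes encode proteins that build or modify the space around the cell. Fibronectin (FN1) is assembled on integrins into fibrils to which cells adhere and migrate. Versican (VCAN) and testican (SPOCK1) are secreted proteoglycans, core proteins that carry chondroitin sulfate or related sugar chains, and CHPF2 takes part in the polymerisation of chondroitin in the Golgi. FAM20C is the Golgi kinase that phosphorylates many secreted proteins. F2RL2 encodes the protease-activated receptor PAR3, a thrombin receptor of the cell surface. CYBA encodes p22phox, the membrane subunit that stabilises NADPH oxidases. TMEM132A is a transmembrane protein.

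The genes lay on 5 chromosomes and did not form a single cluster. In GRCh37 with GENCODE annotation, FN1 covered chr2:216225163-216300796 (minus strand), VCAN chr5:82767437-82878122 (plus), F2RL2 chr5:75911307-75919238 (minus), SPOCK1 chr5:136310987-136934068 (minus), FAM20C chr7:192969-300711 (plus), CHPF2 chr7:150929569-150938065 (plus), TMEM132A chr11:60691932-60704631 (plus) and CYBA chr16:88709683-88717491 (minus). The 8 are protein-coding, and the single-cell reads came from the 3′ ends of their transcripts. Protein-coding genes on the opposite strand overlap CHPF2 (SMARCD3), F2RL2 (IQGAP2) and TMEM132A (SLC15A3), and the levels of these 3 members are uncertain to the extent that counting did not use strand.

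Promoters are shown for F2RL2, the only member with AP-1 letters, and for FN1 and FAM20C, the only members with both CCAAT and GC boxes. The 250 bases before the RefSeq transcription start (GRCh38.p14, a later build than that of the counts, strand of the gene) are printed 5′ to 3′. Capitals in F2RL2 (chr5:76623404-76623653, minus) mark a match to the AP-1 letters TGANTCA, and capitals in FN1 (chr2:215436069-215436318, minus) and FAM20C (chr7:192321-192570, plus) mark CCAAT boxes (CCAAT) and GC boxes (GGGCGG, on either strand).
F2RL2: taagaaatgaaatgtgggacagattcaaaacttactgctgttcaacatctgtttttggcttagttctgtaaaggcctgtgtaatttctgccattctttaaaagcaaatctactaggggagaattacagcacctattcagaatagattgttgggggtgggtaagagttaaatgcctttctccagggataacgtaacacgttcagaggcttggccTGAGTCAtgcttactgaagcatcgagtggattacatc
FN1: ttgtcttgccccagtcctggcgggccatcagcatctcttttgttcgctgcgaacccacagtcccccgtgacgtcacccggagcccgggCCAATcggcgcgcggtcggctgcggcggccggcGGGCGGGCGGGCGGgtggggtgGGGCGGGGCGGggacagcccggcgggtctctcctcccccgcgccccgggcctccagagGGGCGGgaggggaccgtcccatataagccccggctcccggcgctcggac
FAM20C: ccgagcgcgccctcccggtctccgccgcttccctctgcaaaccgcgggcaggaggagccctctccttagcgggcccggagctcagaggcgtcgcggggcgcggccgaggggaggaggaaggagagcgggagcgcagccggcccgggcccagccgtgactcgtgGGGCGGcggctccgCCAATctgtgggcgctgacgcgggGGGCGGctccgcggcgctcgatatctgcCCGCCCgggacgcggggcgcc
Of the 6 members with a promoter in the RefSeq table, which had none for SPOCK1 and TMEM132A, 5 held a GC box in the window from 250 bases before to 50 bases after the start, against 44.6% of all 27305 promoters. The AP-1 letters occurred in F2RL2 alone, starting at base -37, and in 7.76% of all promoters. The CCAAT box occurred in FN1 and FAM20C and in 35.7% of all promoters, and the letters TTTGAA of the cell cycle homology region occurred in VCAN and F2RL2 and in 15.4%. No member held CAGAC (SMAD), GGAATG (TEAD), CACGTG (E-box) or the E2F letters TTTCCCGC or TTTGGCGC, which occurred in 45.0%, 14.0%, 7.43% and 2.31% of all promoters. These matches describe letters only, with no measurement of binding. Thus the members shared no single motif among those searched.

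The gene that stood furthest from all other libraries was FAM20C. It was at 5.25 CPM before treatment, 4.99 in DMSO, 3.36 in paclitaxel, 10.0 in JQ1-A, 8.09 in JQ1+paclitaxel, 8.03 in JQ1-B, 29.96 in palbociclib (95% Poisson interval 27.4 to 32.7) and 32.2 in JQ1+palbociclib (29.998 to 34.6). The lower palbociclib library was 2.99 times the highest other library, the largest such gap of all 9288 genes, and the palbociclib libraries themselves differed by a ratio of 1.08 (95% counting interval 0.960 to 1.21). Thus FAM20C with palbociclib alone and with the combination did not differ beyond counting error.

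Among the proteoglycans, VCAN was at 25.6 CPM before treatment, 18.3 in DMSO, 17.6 in paclitaxel, 19.3 in JQ1-A, 12.6 in JQ1+paclitaxel, 19.3 in JQ1-B, 48.7 in palbociclib and 42.3 in JQ1+palbociclib. SPOCK1 was at 5.25, 3.48, 5.45, 9.64, 7.95, 4.24, 16.6 and 34.2 CPM in the same order. These core protein genes differed in the combination, in which SPOCK1 was 2.06 times (1.80 to 2.37) and VCAN 0.869 times (0.792 to 0.954) its level with palbociclib alone. CHPF2, which acts on the sugar chains, was at 9.13 to 9.64 CPM in the 3 libraries without JQ1 or palbociclib, 12.4 to 13.8 in the 3 with JQ1 but no palbociclib, 17.2 in palbociclib and 24.8 in JQ1+palbociclib.

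FN1 was the member whose palbociclib libraries were least apart from the rest. It was at 56.1 CPM before treatment, 69.6 in DMSO, 59.3 in paclitaxel, 247 in JQ1-A, 198 in JQ1+paclitaxel, 146 in JQ1-B, 260 in palbociclib and 284 in JQ1+palbociclib. The lower palbociclib library exceeded JQ1-A by a factor of only 1.05, which placed FN1 at rank 561 of 9288 genes. The JQ1 libraries were thus intermediate between the untreated and palbociclib libraries, and JQ1-A exceeded JQ1-B by a ratio of 1.69 (1.61 to 1.77), a difference between libraries of the same drug.

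Of the remaining members, F2RL2 was the least abundant, at 1.21 to 1.77 CPM in the 3 libraries without JQ1 or palbociclib, 3.83 in JQ1-A, 2.998 in JQ1+paclitaxel, 2.46 in JQ1-B, 7.19 in palbociclib and 12.6 in JQ1+palbociclib. CYBA was at 110 CPM before treatment, 119 in DMSO, 110 in paclitaxel, 153 in JQ1-A, 154 in JQ1+paclitaxel, 167 in JQ1-B, 184 in palbociclib and 362 in JQ1+palbociclib. Its palbociclib library was only 1.1 times (1.05 to 1.16) JQ1-B, so that the high level of CYBA was mainly that of the combination. TMEM132A was at 7.04 to 9.72 CPM in the 6 libraries without palbociclib, 17.2 in palbociclib and 16.3 in JQ1+palbociclib, and was the member with the narrowest spread among the other libraries.

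Both palbociclib libraries exceeded all others for 864 of the 9288 genes (9.3%), and the choice of members was made among these. At the edge of that rule, the ratio of the lower palbociclib library to the highest other library was 1.00003 for SP1, just inside, and 0.999985 for KIAA0930, just outside. The members ranged from 1.05 (FN1) and 1.1 (CYBA) through 1.24 (CHPF2), 1.65 (VCAN), 1.68 (TMEM132A), 1.72 (SPOCK1) and 1.88 (F2RL2) to 2.99 (FAM20C).

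**Figure D1:**
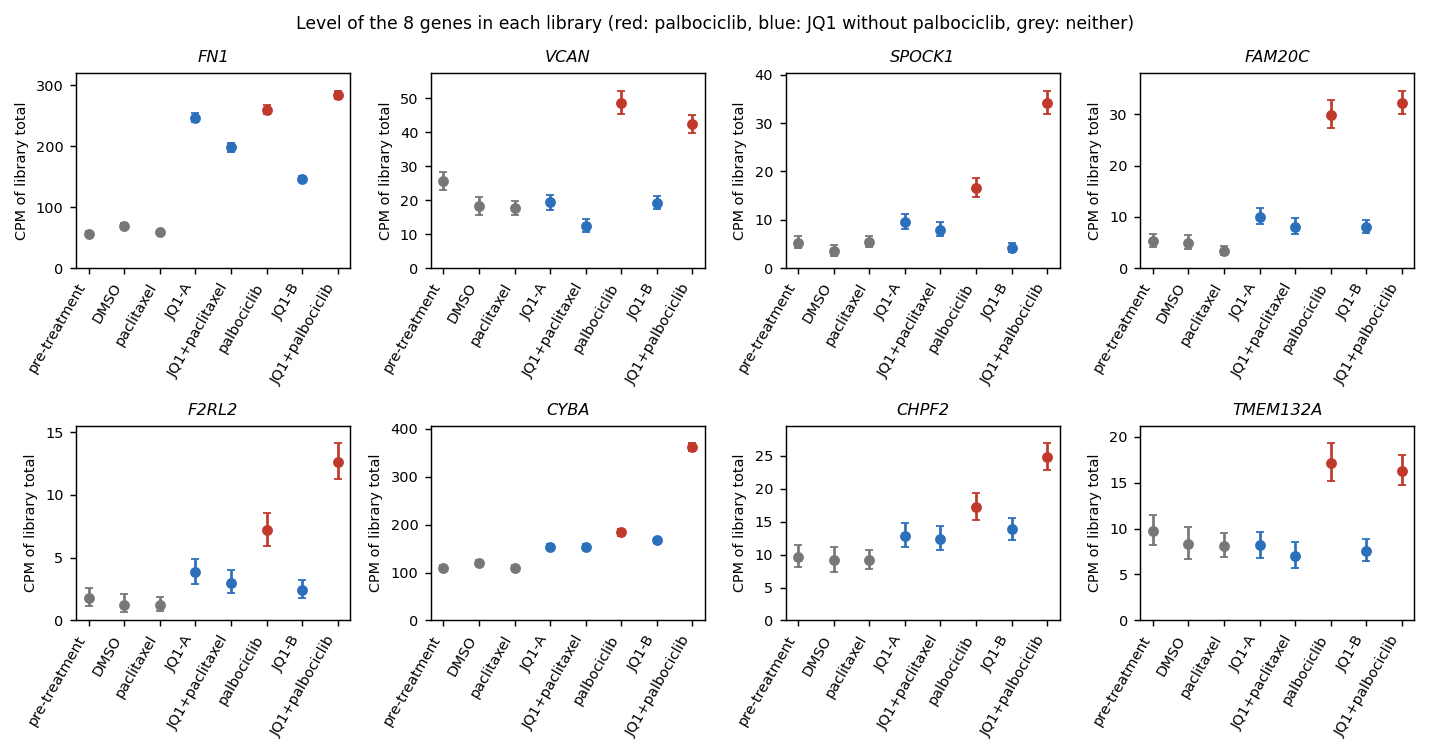
Level of each gene (CPM of the library total, linear axis from 0) in the 8 libraries; bars are exact 95% Poisson intervals, which cover counting error only. FAM20C, VCAN and TMEM132A stand at like levels in both palbociclib libraries (red), SPOCK1, F2RL2 and CYBA are highest in JQ1+palbociclib, and FN1 is already high in JQ1 libraries (blue).

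The comparison closest to a controlled one was JQ1+palbociclib against JQ1-B, both assigned to the same experiment and both with JQ1. Every member was higher with palbociclib added, by ratios of 1.79 (CHPF2, 95% counting interval 1.55 to 2.07), 1.94 (FN1, 1.86 to 2.02), 2.15 (TMEM132A, 1.78 to 2.60), 2.17 (CYBA, 2.08 to 2.26), 2.19 (VCAN, 1.95 to 2.47), 4.01 (FAM20C, 3.39 to 4.78), 5.13 (F2RL2, 3.79 to 7.06) and 8.08 (SPOCK1, 6.47 to 10.2). The direction was fixed in advance by the choice of members, so the ratios are a description. Of all tested genes, 55% were higher in JQ1+palbociclib than in JQ1-B, with a median ratio of 1.02. The intervals do not include variation between cultures, since there was 1 library on each side. In an additive fit across the 8 libraries (edgeR's quasi-likelihood test, terms for JQ1, palbociclib and paclitaxel, Benjamini-Hochberg adjustment over 9288 genes), the log2 difference for palbociclib ranged from 0.93 ± 0.12 (SE) in CHPF2 to 2.26 ± 0.24 in FAM20C (FN1 1.46 ± 0.37), with a median of 1.32 over the members. With the experiment as a further term the median was 1.46. No p is given for the members in this term, since they were chosen by the same values.

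JQ1 was a contrast that the choice of members did not use directly, but its calls are not independent of that choice. JQ1+palbociclib, a library on the JQ1 side, had to be high, and libraries with JQ1 alone had to lie below those with palbociclib. The JQ1 values are therefore given as a description. In the same fit, 6 of the 8 members rose with JQ1 (4 against 4 libraries), where 17.8% of all tested genes were called higher and 37.6% in either direction. FN1 rose by 1.5 ± 0.32 (log2 difference ± SE, edgeR adjusted p = 0.00927), F2RL2 by 1.20 ± 0.24 (0.00679), SPOCK1 by 0.93 ± 0.26 (0.0236), FAM20C by 0.88 ± 0.22 (0.0153), CYBA by 0.80 ± 0.09 (0.00121) and CHPF2 by 0.69 ± 0.10 (0.00258). VCAN (-0.07 ± 0.13, edgeR adjusted p = 0.685) and TMEM132A (0.02 ± 0.12, 0.887) did not pass. The calls of SPOCK1 and FAM20C were lost when single libraries were left out (SPOCK1 without DMSO, JQ1-A or JQ1+palbociclib; FAM20C without pre-treatment, DMSO or JQ1-A), with adjusted p between 0.0529 and 0.0744, and F2RL2 did not pass the filter on low counts without either palbociclib library. F2RL2 reached 5 CPM in the palbociclib libraries alone and so was tested only through the libraries where it was chosen to be high; without the filter, its JQ1 difference was 1.21 ± 0.22 (edgeR adjusted p = 0.00145). Leaving F2RL2 aside, 5 of the other 7 members were called.

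The libraries with JQ1 alone show the same division without a fit. In JQ1-A and JQ1-B, respectively, FN1 was 3.55 and 2.1 times its DMSO level, F2RL2 3.13 and 2.01 times, FAM20C 2.01 and 1.61 times, CHPF2 1.41 and 1.52 times and CYBA 1.28 and 1.40 times. SPOCK1 was 2.77 times DMSO in JQ1-A (1.92 to 4.08) but 1.22 times (0.818 to 1.84) in JQ1-B, so that its higher level with JQ1 alone was that of a single library. VCAN was 1.06 times DMSO in both, and TMEM132A 0.985 and 0.916 times, with counting intervals that included 1. Thus VCAN and TMEM132A were high with palbociclib and near the vehicle level with JQ1, while the other 6 were higher with either drug, SPOCK1 less evenly.

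**Figure D2:**
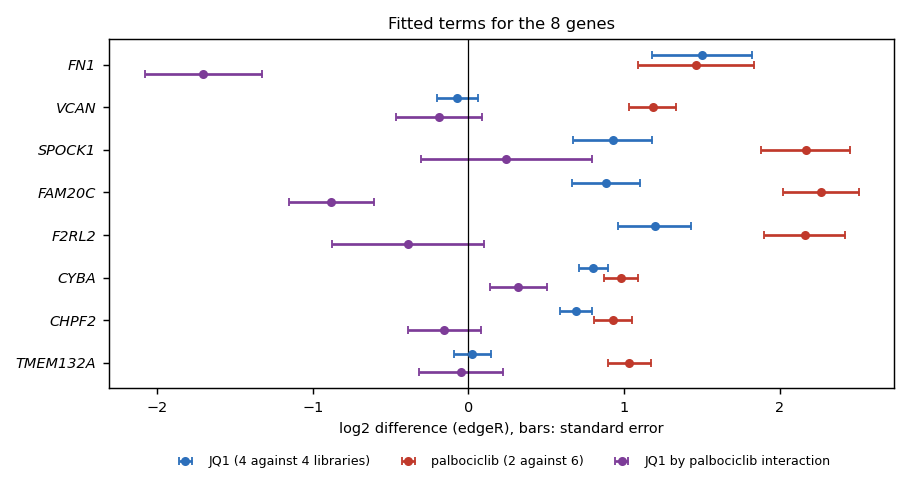
Fitted log2 differences (points) with standard errors (bars) for the JQ1 term, the palbociclib term and their interaction, from edgeR on 8 libraries. The JQ1 estimates of VCAN (-0.07) and TMEM132A (0.02) lie at 0, and the FN1 interaction (-1.70) is the lowest of the members.

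Whether the drugs added up was asked with a JQ1 by palbociclib interaction, for which 0 of the 8 members were called at an adjusted p under 0.05 (edgeR, 2 residual degrees of freedom), against 1 gene (0.0108%) of all 9288. At an unadjusted p under 0.05, FN1 and FAM20C passed, as did 17% of all genes, and the DESeq2 Wald test called 0 members. The interaction of FN1 was -1.70 ± 0.38 (edgeR unadjusted p = 0.00118, adjusted p = 0.117), and that of FAM20C -0.88 ± 0.27 (0.00959, 0.176). The interaction was computed from the library levels by which the members were chosen, so its values are a description. F2RL2 was tested only through the palbociclib libraries. For FN1 and FAM20C the combination held less than the sum of the separate log2 differences, and this was not past the threshold. FN1 passed it without the filter on low counts (edgeR adjusted p = 3.19e-12), and both genes passed without the pre-treatment or the DMSO library, but these settings also called 689 genes in all without the filter, 596 without pre-treatment and 1112 without DMSO. The other interactions lay between -0.39 ± 0.49 (F2RL2) and 0.32 ± 0.18 (CYBA). Set side by side, the combination exceeded palbociclib alone by ratios of 2.06 for SPOCK1, 1.97 (1.89 to 2.05) for CYBA, 1.76 (1.42 to 2.19) for F2RL2, 1.44 (1.25 to 1.67) for CHPF2 and 1.09 (1.05 to 1.13) for FN1, while TMEM132A (0.95, 0.813 to 1.11) and FAM20C were not apart beyond counting error. Among all tested genes 45.3% were higher in the combination.

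Paclitaxel, which acts on mitosis without a direct action on CDK4 or CDK6, gave 0 calls among the 8 members in edgeR and in DESeq2, where DESeq2 called 9 genes in all and edgeR 0 of 9288 (0%; 4.25% had an unadjusted p under 0.05). The members' log2 differences for paclitaxel ranged from -0.44 ± 0.16 in VCAN, the only member with an unadjusted p under 0.05 in edgeR's quasi-likelihood test, to 0.29 ± 0.32 in SPOCK1. Both paclitaxel libraries had to lie below those with palbociclib for a gene to be chosen, so the paclitaxel values are a description too.

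To ask whether more cells carried the transcripts or the same cells carried more, each cell was thinned at random to 10000 UMIs, which left out 210 shallower cells. FAM20C was seen in 23.3% of 665 palbociclib cells and 24.4% of 975 JQ1+palbociclib cells, against 3.67% to 9.56% in the other libraries. SPOCK1 was seen in 15.8% and 26.2%, against 3.12% to 8.95%. F2RL2 was seen in 7.82% and 11.3% (1.11% to 3.79% elsewhere), CHPF2 in 16.4% and 22.4% (8.83% to 14.3%) and TMEM132A in 15.6% and 14.5% (6.46% to 8.69%). VCAN was seen in 37.9% and 29.9%, against 11.6% to 21.5%. For these 6 genes more cells were thus seen where the level was higher. The 3′ capture is sparse, so that a cell without a UMI may still express the gene, and no cell type that lacks these genes was present to set the share given by free RNA. F2RL2 had 13 UMIs in the whole DMSO library before thinning. Both palbociclib libraries were above the other 6 for 7 of the 8 members, against 7.98% of all tested genes, a count fixed in large part by the choice of members.

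The exception was CYBA, seen in 72.5% of palbociclib and 89.5% of JQ1+palbociclib cells but also in 73.8% of JQ1+paclitaxel cells. FN1 was seen in 77.7% of cells of each palbociclib library and 76.6% of JQ1-A cells, against 34.4% to 44.1% in the 3 libraries without JQ1 or palbociclib. A Poisson count with the same mean as FN1 would be seen in 94.4% of cells, at a mean of 2.89 UMIs in palbociclib and 2.87 in JQ1+palbociclib. FN1 was therefore uneven among cells, more so than most genes of like level: its variation between cells beyond Poisson noise (squared coefficient of variation) was 0.888 in palbociclib and 0.857 in JQ1+palbociclib, where genes with means of 1 to 6 UMIs had medians of 0.147 and 0.157 and 90th percentiles of 0.401 and 0.413. Libraries without palbociclib were uneven too, with values of 0.974 in JQ1-A and 1.96 in DMSO. Without the cell that held most FN1, the values were 0.86 in palbociclib, 0.808 in JQ1+palbociclib, 0.827 in JQ1-A and 0.753 in DMSO, so that the higher value of DMSO rested on a single cell.

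FAM20C was also uneven. Its excess variation was 1.48 in palbociclib and 1.04 in JQ1+palbociclib, above the 90th percentiles of genes with means of 0.3 to 1 UMIs (0.538 and 0.449). Its means of 0.331 and 0.327 UMIs lay just above that lower edge, and genes with means of 0.03 to 0.3 UMIs had 90th percentiles of 1.60 and 1.20, above its values. The Poisson share at its mean was 28.2% and 27.9% against the 23.3% and 24.4% seen. TMEM132A, with 15.6% of palbociclib cells seen and 15.8% from a Poisson count, and CHPF2, with 16.4% and 16.6%, were near the Poisson share. At such low means most genes are near it (median of 98.7% of the Poisson share for means of 0.03 to 0.3 UMIs in palbociclib), so that a higher level in all cells and one in part of them were not distinguishable at this depth. VCAN was uneven in JQ1+palbociclib, with an excess variation of 0.962 and 29.9% of cells seen against 34.3% from a Poisson count, above the 90th percentile of 0.449, and SPOCK1 was at 0.508 there but at 0.428 without its top cell. In palbociclib, VCAN (0.444) was below the 90th percentile of 0.538. Among libraries without palbociclib, VCAN passed the 90th percentile in JQ1-A alone, at 2.67 (2.47 without its top cell) against 1.64. FAM20C was at 1.74 in JQ1-A, 2.78 in JQ1+paclitaxel and 3.28 in JQ1-B, against 90th percentiles of 1.64, 1.64 and 1.47. Without its top cell it was at 1.16, 1.67 and 1.42, and only JQ1+paclitaxel stayed above, narrowly. Unevenness of VCAN was therefore not particular to the palbociclib libraries. For FAM20C, that of JQ1-A and JQ1-B rested on a single cell, so that no such statement is made.

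**Figure D3:**
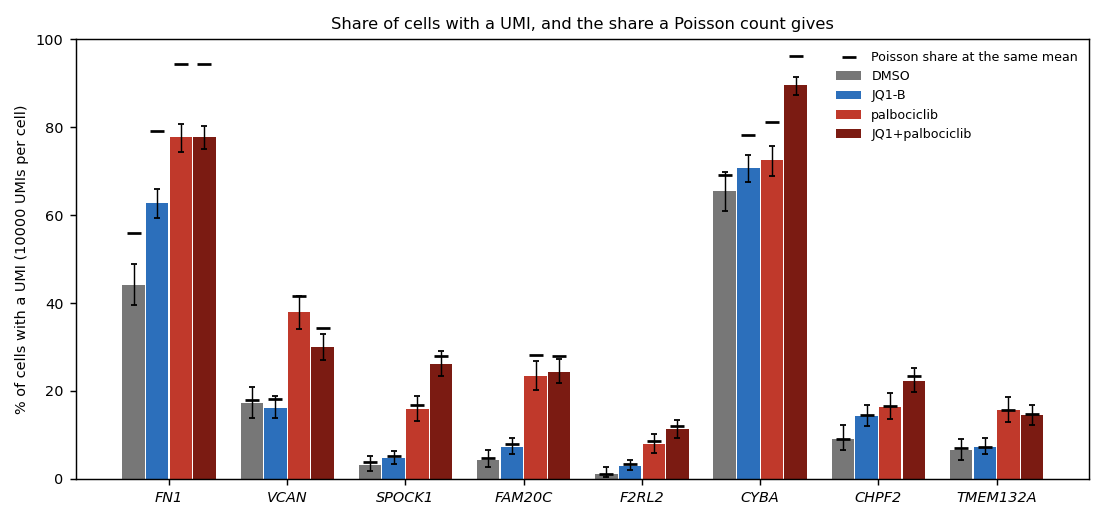
Share of cells with at least 1 UMI after thinning to 10000 UMIs per cell (bars, with exact 95% binomial intervals) in 4 libraries, and the share a Poisson count of the same mean gives (black marks). Marks stand well above the bars for FN1 and above them for CYBA in all 4 libraries. In the palbociclib libraries they stand above the bars for FAM20C and VCAN too. For CHPF2 and TMEM132A they are at or near the bar tops.

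Counted per cell, the median number of the 8 genes with a UMI was 3 in both palbociclib libraries, 2 in the 3 other JQ1 libraries and 1 in the remaining 3. At least 4 of the 8 were seen in 24.1% of palbociclib and 30.8% of JQ1+palbociclib cells, against 1.56% to 8.5% elsewhere. None was seen in 2.71% and 0.718%, against 4.26% to 18.1%. These counts follow in large part from the choice of members and are a description.

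The cells with most FN1 differed between the palbociclib libraries in what else they held. In palbociclib, the fourth of cells with most FN1 (167 cells with at least 4 UMIs, ties broken by file order) held 65.3 CPM of FAM20C against 22.3 in the other 498 cells, a ratio of 2.93 (95% counting interval 2.23 to 3.85). F2RL2 was at 18.6 against 5.82 CPM (3.19, 1.86 to 5.48), and SPOCK1 at 29.9 against 14.5 CPM (2.07, 1.41 to 3.01). Thus FAM20C, F2RL2 and SPOCK1 were higher in FN1-high cells of the library treated with palbociclib alone, where 0.859% of 8963 genes with at least 30 UMIs reached a ratio of 2. In JQ1+palbociclib, the 244 cells with most FN1 held 30.3 CPM of FAM20C against 33.5 in the rest (0.905, 0.688 to 1.18). The ratio there was 0.946 (0.606 to 1.44) for F2RL2 and 1.07 (0.821 to 1.37) for SPOCK1, so that none of the 3 genes was higher in FN1-high cells of the combination beyond counting error. VCAN had ratios of 1.05 (0.820 to 1.34) in palbociclib and 1.63 (1.32 to 2.0) in JQ1+palbociclib. The 6 libraries without palbociclib gave VCAN ratios of 1.47 (1.04 to 2.05) before treatment to 2.66 (1.94 to 3.63) in JQ1-B, so that palbociclib alone had the lowest. In those 6 libraries the FAM20C ratio ran from 1.21 (0.692 to 2.04) in JQ1-A to 2.57 (1.08 to 5.98) before treatment, and that of SPOCK1 from 0.968 (0.423 to 2.03) in paclitaxel to 3.42 (1.82 to 6.46) in JQ1-B. Of these ratios, only that of FAM20C before treatment and that of SPOCK1 in JQ1-B had intervals above 1. FN1-high cells started at 1 UMI before treatment, in DMSO and in paclitaxel, where file order decided among cells with 1 UMI. They started at 2 UMIs in JQ1-B, 3 in JQ1+paclitaxel and 4 in JQ1-A and palbociclib. Higher SPOCK1 in FN1-high cells thus occurred in JQ1-B too, at a lower cut. Whether higher FAM20C was particular to palbociclib alone could not be told, since its only such ratio elsewhere came from a cut at 1 UMI. The F2RL2 ratio in those 6 libraries ran from 0.743 (0.0151 to 7.51) in DMSO to 2.40 (0.476 to 11.2) in paclitaxel. All these F2RL2 intervals included 1 and were too wide to tell whether its higher level was particular to palbociclib alone. CHPF2, TMEM132A and CYBA had ratios of 1.15 to 1.31 in palbociclib and 0.984 to 1.25 in JQ1+palbociclib.

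FN1-high cells were more often in G1, 68.9% against 55.6% in palbociclib and 63.5% against 48.4% in JQ1+palbociclib, so the split was repeated within cells called G1. The FAM20C ratio was then 3.17 (2.26 to 4.45) in palbociclib and 0.744 (0.485 to 1.11) in JQ1+palbociclib, and that of F2RL2 was 3.17 (1.57 to 6.40) and 1.11 (0.618 to 1.91). Taken from the other side, palbociclib cells with a FAM20C UMI held 447 CPM of FN1 against 241 in cells without (1.86, 1.69 to 2.04) and 19.4 against 5.88 CPM of F2RL2 (3.29, 1.92 to 5.65), while the FN1 ratio was 0.924 (0.845 to 1.01) in JQ1+palbociclib. Across single cells, Pearson's r of FN1 and FAM20C was 0.29 over 665 palbociclib cells and -0.002 over 975 JQ1+palbociclib cells, as a description of sparse counts of the same libraries. Each pattern is that of 1 library made from pooled cultures, and whether FN1-high cells came from 1 culture or clone could not be told apart.

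**Figure D4:**
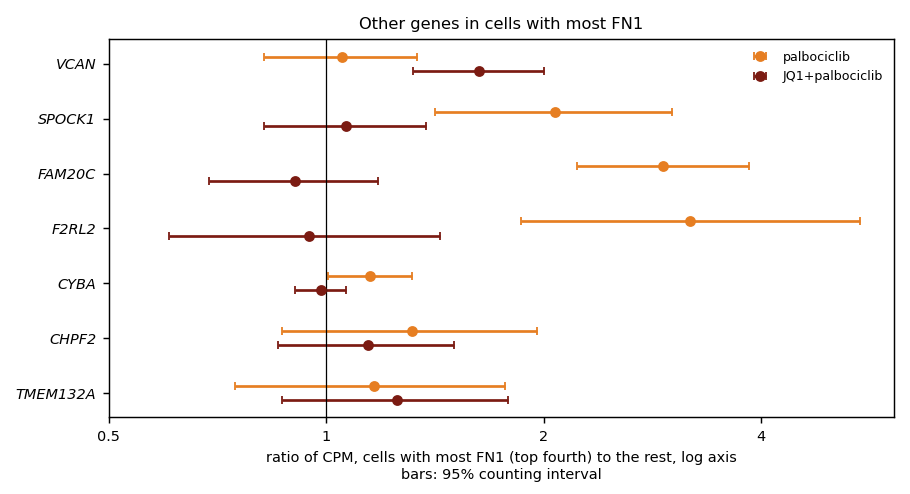
Ratio of the level of the other 7 genes in the fourth of cells with most FN1 to that in the rest (log axis; bars are 95% counting intervals) in palbociclib (orange) and JQ1+palbociclib (dark red). FAM20C, F2RL2 and SPOCK1 lie at 2.07 to 3.19 in palbociclib and near 1 in the combination, and VCAN at 1.05 and 1.63.

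COL1A1, the gene of a fibrillar collagen chain, also divided the cells of the combination. JQ1+palbociclib cells with a COL1A1 UMI (158 of 975) held 439 CPM of FN1 against 258 in the rest (1.70, 1.56 to 1.85) and more VCAN (1.42, 1.11 to 1.80), but less FAM20C (19 against 35.4 CPM; 0.537, 0.356 to 0.783), CHPF2 (0.646, 0.423 to 0.953) and CYBA (0.804, 0.725 to 0.891). In palbociclib alone the FAM20C ratio was 1.67 (1.26 to 2.19). The other libraries gave FN1 ratios from 1.20 (1.09 to 1.32) in palbociclib to 1.79 (1.47 to 2.19) in paclitaxel. Their VCAN ratios ran from 1.18 (0.941 to 1.48) in palbociclib to 1.64 (1.18 to 2.27) in JQ1-B. Higher FN1 and VCAN in cells with a COL1A1 UMI was therefore not particular to the combination. With TIMP3 in place of COL1A1, the ratios in JQ1+palbociclib were 1.63 for FN1, 1.52 for VCAN, 0.772 (0.59 to 1.001) for FAM20C, 0.728 (0.537 to 0.974) for CHPF2 and 0.997 (0.923 to 1.08) for CYBA, so that the lower CYBA did not recur.

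Palbociclib holds cells in G1, and 58.9% of palbociclib and 52.2% of JQ1+palbociclib cells were called G1 from S and G2/M gene scores set across all libraries, against 43.6% to 50.5% in the other JQ1 libraries, 22.7% in DMSO, 20.8% before treatment and 4.08% in paclitaxel. These shares depended on the scoring. With scores set within each library, G1 made up 48.3% in palbociclib, 44.3% in JQ1+palbociclib, 47.0% in JQ1-A, 45.0% in JQ1+paclitaxel and 26.8% in paclitaxel. Within cells of a single phase the palbociclib libraries were again the highest. In G1, S and G2/M, both palbociclib libraries were above the other 6 in 23 of the 24 combinations of gene and phase, the exception being CYBA in G2/M (173 CPM in palbociclib against 178 in JQ1-B). Over all tested genes, both were above the rest for 4.59% in G1, 7.03% in S and 7.13% in G2/M, and in each of the 3 phases for 0.98%; the members were chosen for the same order over all cells, so these counts are a description. For FAM20C the lower palbociclib library was at 30.5 CPM in G1, 26.7 in S and 27.5 in G2/M, and the highest other library at 10.8, 14.4 and 11.3. With the 3 phases weighted alike in every library, the ratio of the lower palbociclib library to the highest other one was 2.58 for FAM20C, 2.68 for F2RL2, 1.93 for SPOCK1, 1.67 for TMEM132A, 1.51 for VCAN, 1.21 for CHPF2, 1.14 for FN1 and 1.11 for CYBA. The part of the G1 share in the differences was not tested.

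**Figure D5:**
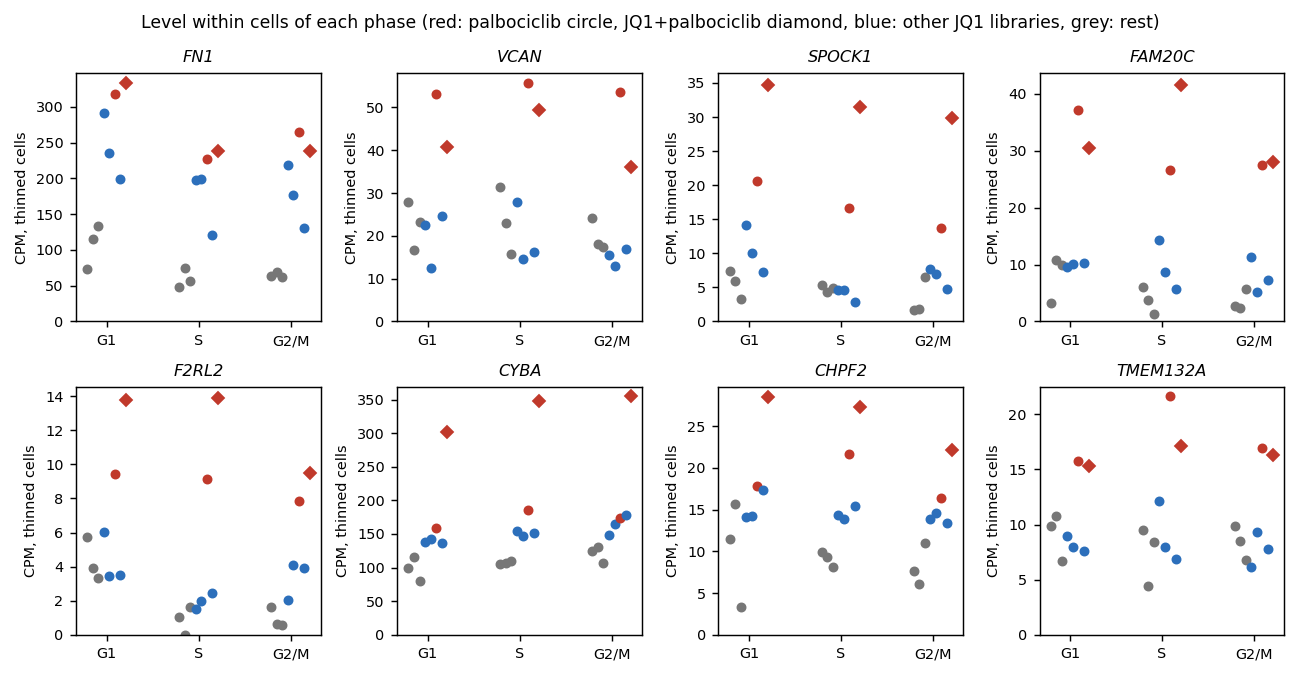
Level of each gene (CPM in cells thinned to 10000 UMIs) within cells called G1, S or G2/M, with 1 point per library. Red points lie above all others in every panel and phase except CYBA in G2/M, where palbociclib (173 CPM) is below JQ1-B (178 CPM).

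Genes that act with the members were taken from 8 lists written from the known roles of the members, which hold 194 other genes, 111 of them tested. For palbociclib, 1 of the 111 rose at an adjusted p under 0.05 and none fell, where 0.205% of all tested genes were called higher and 0.28% in either direction; 82 of the 111 had a log2 difference above 0 (51.7% of all genes) and their median was 0.28 (0.01 for all genes). The called gene was TGFBI, which encodes a secreted matrix protein induced by TGF-beta (1.23 ± 0.18, edgeR adjusted p = 0.0426). The DESeq2 Wald test called 24 of the list genes, and 515 of all 9288 against 26 in edgeR, so that the count depended on the test. For JQ1, 35 of the 111 rose and 17 fell, with a median of 0.24, where 17.8% of all tested genes were called higher and 19.7% lower.

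Fibronectin receptors and fibril partners had 24 tested genes, none called for palbociclib, 21 of them above 0, with a median log2 difference of 0.51. They included the fibronectin-binding FBLN1 (1.27 ± 0.21, edgeR adjusted p = 0.0540), the collagen chain COL6A2 (1.27 ± 0.24, 0.0712) and the integrin subunit ITGB1 (0.40 ± 0.12, 0.126). Among 10 proteoglycan and hyaluronan genes (median 0.46, 8 above 0), the basement membrane proteoglycans AGRN (1.42 ± 0.23, edgeR adjusted p = 0.0504) and HSPG2 (1.47 ± 0.36, 0.0877) had the largest differences. The 24 tested chondroitin sulfate synthesis genes were centred near 0 (median 0.09, 15 above 0), from CHST7, a sulfotransferase, at -0.98 ± 0.22 (edgeR adjusted p = 0.0768) to CHST3, another, at 0.68 ± 0.25 (0.174). The most abundant of them, SLC35B2, which brings the sulfate donor into the Golgi, was at -0.02 ± 0.10 (edgeR adjusted p = 0.939). CHPF, the paralog of CHPF2, was added after its values were seen, and was at 0.50 ± 0.12 (edgeR adjusted p = 0.0823).

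Of 17 genes of the thrombin receptor system (median 0.31, 12 above 0), F2R, which encodes the thrombin receptor PAR1, had the largest difference, 0.95 ± 0.23 (edgeR adjusted p = 0.0823), and F3, tissue factor, was at 0.03 ± 0.23. The 21 TGF-beta signalling genes had a median of 0.39, with 19 above 0, among them the induced inhibitor PMEPA1 (1.09 ± 0.20, edgeR adjusted p = 0.0712). The remaining lists were centred near or below 0. These were 6 NADPH oxidase partners (median -0.04), in which the GTPase RAC1 was at -0.09 ± 0.12 and the dismutase SOD2 at 0.82 ± 0.45, 8 secretory kinases and FAM20C substrates (median 0.07), in which the oxidase QSOX1 was at 0.64 ± 0.17 and ERO1L at -0.43 ± 0.13, and the chaperones HSPA5 (-0.64 ± 0.28) and HSP90B1 (-0.29 ± 0.13) of the TMEM132 list. Thus 3 of the 6 oxidase partners of CYBA and neither chaperone had a difference above 0.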

How the data were processed

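The deposited values were UMI counts for each gene in each cell, made by the authors with Cell Ranger from 3′ libraries aligned to hg19; the authors' metadata gave the library of each cell. Counts were summed over the cells of a library (5738 cells in all) and analysed with edgeR 4.0.16 (R 4.3.3), with TMM normalization and the quasi-likelihood test, for genes with at least 5 CPM in at least 2 libraries. The additive fit had 4 residual degrees of freedom. Phases came from Seurat 5.3.0 scores. Ratio intervals were exact conditional binomial (95%), shares exact binomial, and all cover counting error only. Doublets were not called, as every cell belongs to the same line; shares were also computed without the cells above their library's 95th percentile of UMIs. The scripts were tested on simulated data. Alternatives included DESeq2 1.42.0, no filter, the study's filter on cells (1 to 15% mitochondrial UMIs, at least 2000 genes, 5575 cells), each library left out and the experiment as a term. Splits within G1 and by FAM20C were added after values were seen. The members and lists were chosen with earlier results of these data known. Named genes were the members and, per list, called genes, the 2 most abundant and the 2 with the largest palbociclib difference, from which examples are given. CHPF was named outside this rule, after its values were seen. Where genes overlap, the use of strand in counting was not stated in the sources used here.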

Additional observations from a re-analysis of the deposited data

How the results depend on the processing

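The 6 members called for JQ1 were 4 to 6 when each library was left out and 6 under every other alternative run. For palbociclib, a contrast the members were chosen by, the 7 calls became 8 without a filter on low counts, 0 with the experiment as a term (0 of all genes) and 0 to 7 without single libraries: 2 without palbociclib and 0 without DMSO, pre-treatment or either JQ1 library, while the members' median log2 difference was 1.12 to 1.46 against 1.32. These palbociclib counts only describe how the calls depend on the setting, and they are not read as a test of the members. In the main fit 26 of all 9288 genes (0.28%) were called for palbociclib in either direction. F2RL2, among the 7, passed the filter on low counts only through the palbociclib libraries. For the interaction, the count of 0 became 1 without a filter on low counts and 0 to 2 without single libraries. Paclitaxel gave 0 calls throughout. List genes called for palbociclib went from 1 to 24 with the DESeq2 Wald test, 15 without a filter, 2 with the study's filter on cells and 0 with the experiment as a term, and 0 to 23 without single libraries (0 without DMSO, JQ1-B or pre-treatment; 18 without paclitaxel or JQ1+paclitaxel; 23 without JQ1+palbociclib). The cause of these shifts was not tested. No member's log2 difference past the threshold reversed under any alternative. Counts of members by share of cells, by ratio to JQ1-B, by phase and in COL1A1-positive cells stayed within 1.5 times. No paired analysis was possible because the groups share fewer than 2 replicate numbers in the labels; the experiment was fitted as a term in its place. Depth limits F2RL2 most, with 13 UMIs in DMSO.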

Other observations

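The genes whose level over the 8 libraries was most like the mean standardised profile of the members, among 4430 other genes averaging at least 20 CPM, were MGAT4B, a Golgi glycosyltransferase (Pearson r = 0.984), CD81, a tetraspanin (0.976), APP, the amyloid precursor protein (0.974), GTF2I, a transcription factor (0.969), and HIPK2, a kinase (0.968). These are descriptions over 8 libraries of which 2 carry most of the contrast. MGAT4B ran from 32.3 CPM in DMSO to 56.8 in palbociclib and 59.7 in JQ1+palbociclib, a smaller fold than that of most members, and CD81 from 47.2 CPM before treatment to 90.5 and 103.

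Genes near the members did not move with them as a group. Within 1000000 bases on either side, the medians of the palbociclib log2 difference lay between -0.11 (2 genes near VCAN) and 0.16 (13 genes near SPOCK1). TGFBI, near SPOCK1, was the only called neighbour. F2R, next to F2RL2, encodes another receptor of the same family and was at 0.95 ± 0.23. SMARCD3, a chromatin remodelling subunit that overlaps CHPF2 on the opposite strand, was at 7.53 CPM in DMSO, 7.98 in JQ1-B, 17.3 in palbociclib and 14.4 in JQ1+palbociclib (log2 difference 0.995 ± 0.212, edgeR adjusted p = 0.0759). If counting did not use strand, reads of the pair cannot be told apart, and the level of CHPF2 is uncertain to that extent. F2RL2, which lies within IQGAP2 on the opposite strand, and TMEM132A, which overlaps SLC15A3, carry the same uncertainty. On its own strand CHPF2 also overlaps the long non-coding RNA ENSG00000272661 and the microRNA gene MIR671, which strand cannot separate from it. IQGAP2 and SLC15A3 were not among the tested genes.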
